A study of Rattus norvegicus with 8 samples.

Results

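The receptors for glutamate, GABA and glycine are assembled from subunits, and this account follows the genes of those subunits in the rat retina after optic nerve crush. Members were taken by gene name from the array annotation: the AMPA (Gria), kainate (Grik), NMDA (Grin), delta (Grid) and most metabotropic (Grm) glutamate receptor genes, the GABA-A, GABA rho and GABA-B genes, and the glycine receptor genes, with no measured value used. This gave 48 genes of the 26334 names on the array, 25 for glutamate and 23 for GABA or glycine receptors. RNA came from retinas of female Lister Hooded rats aged 8 weeks. In the ONC group the right optic nerve had been crushed with forceps, 3 mm behind the disc and for 10 s, in the CTR group the same surgery was done without closing the forceps, and retinas were collected 2 weeks later. There were 4 retinas per group on 4 two-color Agilent arrays, 1 in each of 8 channels.

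By the labels, every CTR retina was read in the red dye Cy5 and every ONC retina in the green dye Cy3, with the CTR and ONC retinas of the same number sharing an array. Dye and condition therefore cannot be told apart, for any gene below. The methods describe another layout, in which retinas of the same group share an array. The labels were used throughout, and the channels are called by them. Markers of retinal ganglion cells (RGCs), which die after the crush, went against the labels. Of 17 such markers listed, 16 were on the array and 11 passed the spot filter, and the median of their log2 levels, each gene set against its mean over the 8 channels, was -1.44, 1.15, -1.02 and -0.95 for CTR1 through CTR4. It was 1.15, 1.15, 1.36 and -1.17 for ONC1 through ONC4. ONC exceeded CTR for 10 of the 11, and their median difference was 1.16. Only CTR2 among the CTR channels was high and only ONC4 among the ONC channels was low. Whether labels were exchanged between channels was not tested, and an exchange would alter the meaning of every ONC over CTR value below, so each direction is only a direction between labels.

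Glutamate is the transmitter of photoreceptors, bipolar cells and ganglion cells, and it acts on AMPA, kainate and NMDA channels and on metabotropic receptors, which signal through G proteins. GABA and glycine are the transmitters of amacrine and many horizontal cells. They open chloride channels built from GABA-A, rho or glycine receptor subunits, and GABA also acts on the metabotropic GABA-B receptor. The rho subunits of GABA receptors are best known from the axon terminals of retinal bipolar cells, where they form slowly closing channels that amacrine cells act on.

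Of the 48 genes, 34 passed the filter on dim spots, which requires a foreground of at least 2 times the background in all 8 channels, and 14 did not. Levels are log2 values after background subtraction and loess, centered so that the median spot of each channel is 0. The level of a gene depends on its probe, so levels were compared between channels and not between genes. The retina label was checked against photoreceptor genes. Of 10 rod markers 8 passed the filter. Among them Gnat1, the rod transducin, was at log2 levels of 6.17 in ONC2 and up to 6.88 in CTR1, and Pde6b, of the rod phosphodiesterase, at 6.02 to 6.50, far above the median spot in every channel.

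The probe of a subunit could in principle bind the transcript of a related subunit. The closest probes of different genes among the 1757 such probe pairs were those of Gria2 and Gria3, which share 36 of 50 overlapping bases (72.0%). Next came the probes of Glra3 and Glra4, with 38 of 59 shared (64.4%). The positions are chr2:172269214-172269273 for Gria2, chrX:3459714-3459773 for Gria3, chr16:37640157-37640216 for Glra3 and chrX:124410031-124410090 for Glra4, all on the minus strand of rn4, the build of the array design. The sequences are shown to let the degree of likeness be seen, with bases shared by the aligned probes in capitals.
Gria2: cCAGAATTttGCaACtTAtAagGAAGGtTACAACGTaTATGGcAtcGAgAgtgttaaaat
Gria3: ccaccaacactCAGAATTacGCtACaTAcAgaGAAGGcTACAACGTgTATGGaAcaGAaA
Glra3: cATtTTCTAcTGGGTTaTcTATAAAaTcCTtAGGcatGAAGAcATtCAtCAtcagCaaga
Glra4: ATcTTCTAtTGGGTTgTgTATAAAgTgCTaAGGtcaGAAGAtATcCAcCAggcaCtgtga
No pair reached 80% over an overlap of at least 30 bases. Of the 60 probes, 7 had positions spanning over 100 bases, more than their length. A probe across an exon junction would give such a span, but the positions were not read against transcripts. The probe of Glra2 differed from the rest by its make-up. It holds a repeat of 16 CA units, counted on either strand. Only 2 of the 30367 probes on the array, that of Glra2 included, have a run as long or longer. Its values may include other transcripts with such repeats, which was not tested.

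Differences between the labels were tested with limma over all 16307 genes that passed the filter. At an adjusted p under 0.05, 1 of the 34 subunits was called, Gabrr2, where 0.497% of all genes were called and 0.233% were called as higher in ONC. At an unadjusted p under 0.05 there were 9 of 34, 8 higher and 1 lower in ONC, where 18.6% of all genes passed, 8.70% higher and 9.85% lower. With the array as a block, 5 of 34 were called (Gabrr2, Gabrr1, Glrb and Grik2 higher, Grik5 lower), where 7.69% of all genes were called, 3.08% higher and 4.61% lower. With median scaling in place of loess it was 14 of 34, 13 of them higher, where 19.6% of all genes were called and 13.9% higher. The methods' t-test passed 9 subunits before adjustment, beside 16.4% of all genes, and 0 after Benjamini-Hochberg adjustment.

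Most subunits lay higher in ONC without passing a test. The log2 fold change was above 0 for 26 of 34 subunits (76.5%), against 47.4% of all genes, and its median was 0.15, against -0.01 for all genes. On the single arrays the median of the subunits was 0.22, 0.11, 0.19 and 0.11, against -0.03, 0.00, -0.02 and 0.00 for all genes. The ONC channel was the higher on 4 of 4 arrays for 12 subunits (35.3%, against 18.2% of all genes) and the lower on 4 of 4 arrays for 3 (8.82%, against 21.2%). With the scanner software's processed signals 26 of 34 subunits were above 0, beside 7367 of all 16307 genes. With median scaling it was 29 of 34, beside 9694 of 16307, and the median of all genes was 0.07. That setting leaves out the loess fit over intensity, and it did not shift all genes alike. Glra3 and Glrb, with dim spots, went from -0.09 to 0.62 and from 0.53 to 1.09. Grin2d, with a bright spot, went from 0.01 to -0.15, and the median of the rod markers from -0.11 to -0.45. The part of dye and intensity in the calls with median scaling was not tested. The counts above describe the members and carry no test.

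**Figure D1:**
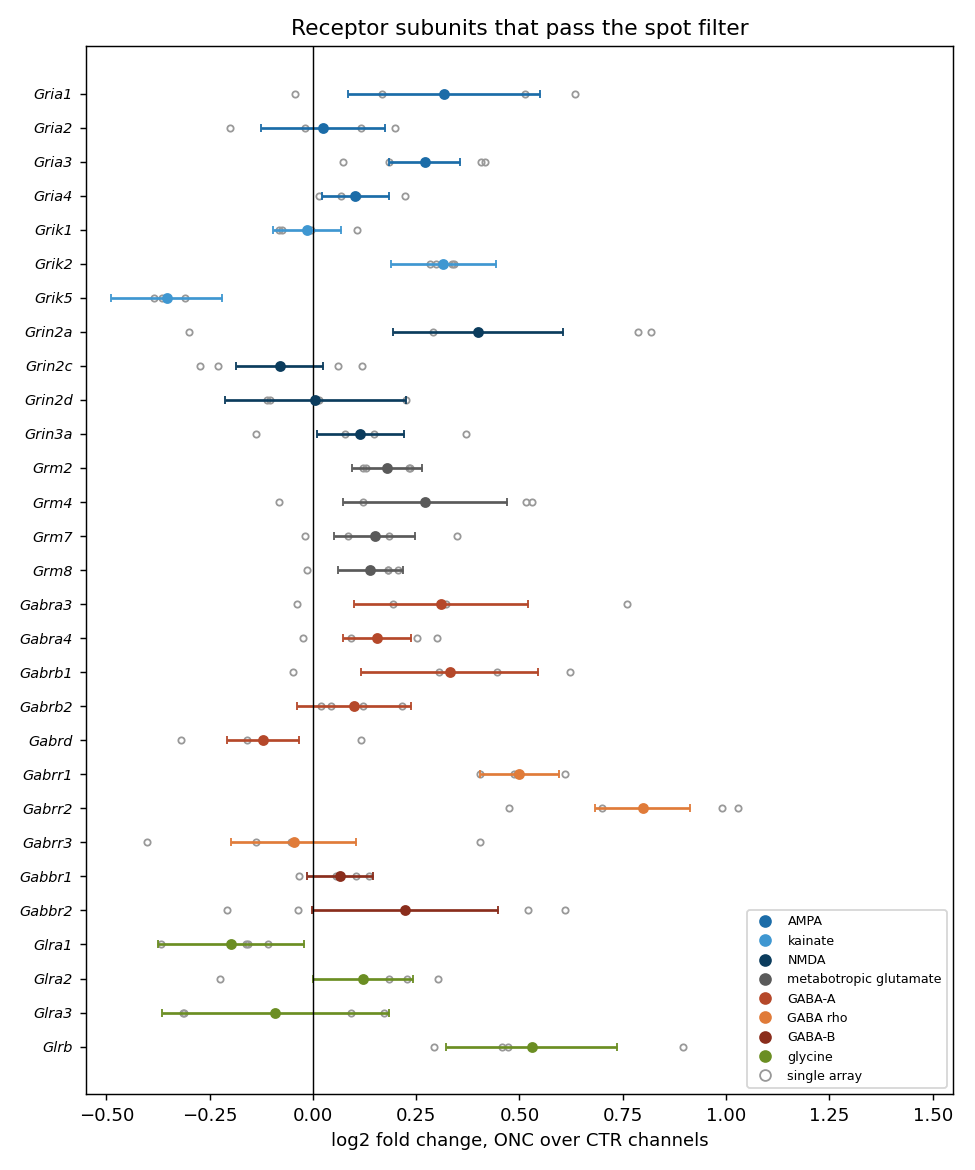
Log2 fold change of ONC over CTR channels for 29 of the 34 subunits that passed the spot filter. Filled points with bars are limma's estimate and its standard error over 4 channels per label, colored by receptor class, and open circles are the differences on the 4 single arrays. Gabrr2 lies farthest to the right at 0.80 and Grik5 farthest to the left at -0.35.

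The smallest p-values were those of rho subunits. Gabrr2, which encodes the rho2 subunit, was at log2 levels of -1.26, -1.24, -1.28 and -1.36 over CTR1 to CTR4, against -0.56, -0.77, -0.29 and -0.33 over ONC1 to ONC4. All ONC channels lay above all CTR channels, and the CTR channels were within a narrow band. The mean was -1.28 ± 0.05 (SD, n = 4) in CTR and -0.49 ± 0.22 (SD, n = 4) in ONC, which is 0.80 on the log2 scale, with a standard error of 0.11 and a limma adjusted p of 0.0438, higher on 4 of 4 arrays. With the array as a block the adjusted p was 0.0290. The call was lost when any channel but ONC2 was left out, with adjusted p from 0.0733 without CTR2 to 0.178 without ONC3, with processed signals (0.0502), and with the filter dropped and normexp background correction used together (0.179), while the fold change stayed between 0.73 and 0.89. CTR2, CTR4, ONC1 and ONC3 carry the same dye by the labels and by the methods, and in these channels alone, a choice made after seeing the data, it was 0.88 with an adjusted p of 0.384. There limma called 0 genes, with 1961 at an unadjusted p under 0.05.

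Gabrr1, the gene of the rho1 subunit, was at 0.12, 0.14, -0.06 and -0.12 over CTR1 to CTR4, against 0.53, 0.62, 0.55 and 0.37 over ONC1 to ONC4. Here too every ONC channel was above every CTR channel, and the difference was nearly even over the arrays, at 0.41, 0.49, 0.61 and 0.49. Its log2 fold change was 0.50 (standard error 0.10), just short of a call (adjusted p = 0.0575 by limma) and called with the array as a block (0.0290). Over the alternatives its adjusted p ranged from 0.0134 to 0.385. Gabrr3, the gene of the rho3 subunit, was not separated by label, at -1.88, -1.86, -2.38 and -2.02 in CTR and -2.01, -1.91, -1.98 and -2.42 in ONC. The channels overlapped fully, and the log2 fold change of -0.05 had a standard error of 0.15 and a sign that changed with median scaling (0.15) and processed signals (0.17). Whether the rho genes differ from each other in their change was not tested. Fewer cells of a type and less RNA per cell cannot be told apart in whole retina, here or below.

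Gabrr1 and Gabrr2 are neighbors on chromosome 5, with their probes 71.1 kb apart, whereas Gabrr3 lies on chromosome 11. Because these neighbors both lay higher in ONC, the 250 bases before the start of each are shown, as given by RefSeq on GRCr8, at chr5:52320225-52320474 for Gabrr1 and chr5:52248228-52248477 for Gabrr2, both on the plus strand. RefSeq promoters were matched for 31 of the 48 genes. Capitals mark matches on either strand to TAATCC, the core bound by the OTX2 and CRX homeodomains of photoreceptors and bipolar cells, and to CANNTG, the E-box of bHLH factors.
Gabrr1: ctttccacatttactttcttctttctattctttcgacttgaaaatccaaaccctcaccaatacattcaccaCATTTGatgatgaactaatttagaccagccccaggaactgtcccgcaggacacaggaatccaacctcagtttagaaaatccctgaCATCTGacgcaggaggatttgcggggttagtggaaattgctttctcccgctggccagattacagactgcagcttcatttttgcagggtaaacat
Gabrr2: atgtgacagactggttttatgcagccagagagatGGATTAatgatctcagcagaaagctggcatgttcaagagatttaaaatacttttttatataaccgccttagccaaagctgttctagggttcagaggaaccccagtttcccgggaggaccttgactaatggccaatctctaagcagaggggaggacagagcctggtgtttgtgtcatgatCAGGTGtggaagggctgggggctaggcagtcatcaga
Gabrr2 had 1 TAATCC match, read as GGATTA on this strand, and 1 E-box, and Gabrr1 had 0 and 2. TAATTA, a homeodomain core, had 0 matches in either. Of 33469 promoters 6.34% held TAATCC, 65.5% CANNTG and 4.86% TAATTA, and of the 31 subunit promoters 3, 17 and 1 did. A match describes the letters and is no sign of binding.

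**Figure D2:**
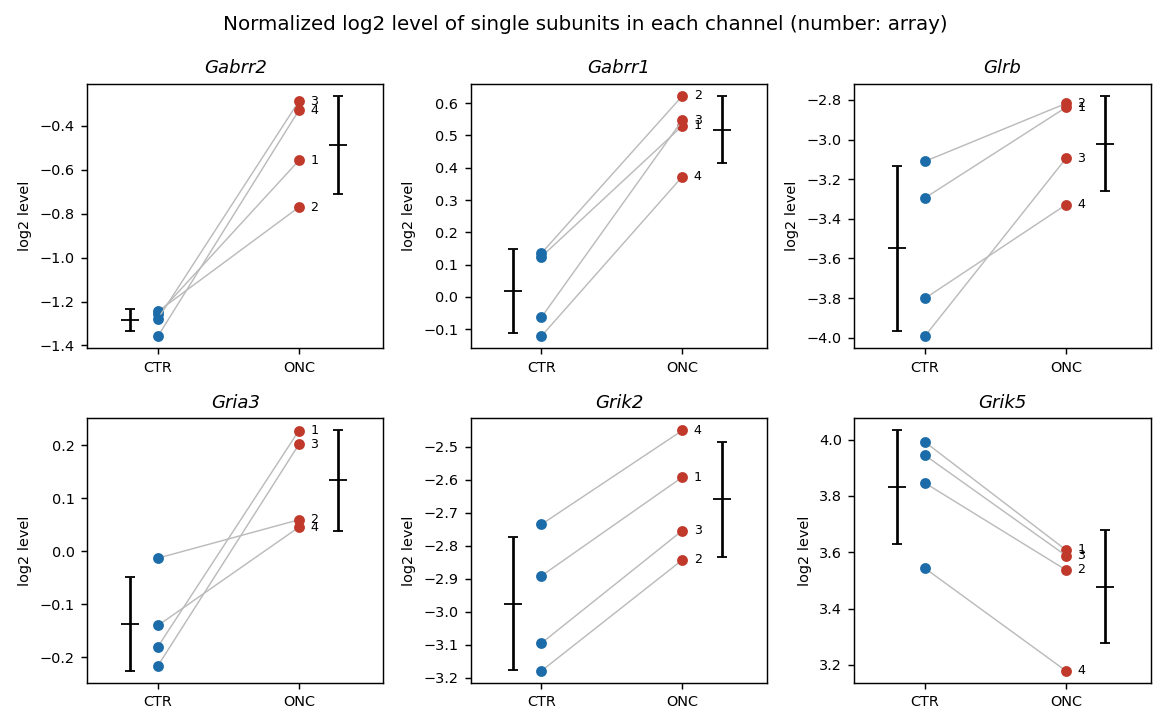
Normalized log2 level of 6 subunits in each channel, CTR in blue and ONC in red, with gray lines joining the channels that share an array and its number beside the ONC point. Black bars are the mean and SD of the 4 channels of a label. Gabrr2, Gabrr1 and Gria3, the last as the mean of its probes, do not overlap between labels. Grik2 and Grik5 shift by a like amount on every array.

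The GABA-A genes encode the subunits of the fast GABA channel found on most retinal neurons. Of 13 genes 8 passed the filter, and 7 of these lay higher in ONC. Over the 8 the median was 0.25, or 0.56 with median scaling. Gabrb1, of the beta1 subunit, was at -1.27, -1.06, -1.62 and -1.57 in CTR and -0.96, -0.61, -1.00 and -1.62 in ONC, with ONC4 as low as the lowest CTR channel. Its log2 fold change of 0.33 had a standard error of 0.21 and an adjusted p of 0.454 by limma, and was 0.19 without ONC2 and 0.52 without ONC4. Among other GABA-A genes the log2 fold change was 0.31 for Gabra3, 0.16 for Gabra4, 0.10 for Gabrb2 and -0.12 for Gabrd, with adjusted p from 0.357 to 0.757 by limma. With median scaling Gabra3, Gabra4 and Gabrb2 were called, as were Grin3a and Grm7 of the glutamate receptors. Gabra3 and Gabrb2 were not well above background in ONC4. The probes of Gabra4 and Gabrb1 lie 592 kb apart on chromosome 14.

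The GABA-B receptor is a dimer of the products of Gabbr1, which binds GABA, and Gabbr2, which couples to the G protein. Gabbr2 was at 2.54, 2.97, 2.38 and 2.33 over CTR1 to CTR4, against 3.06, 2.94, 2.99 and 2.12 over ONC1 to ONC4. CTR2 was level with the first 3 ONC channels and ONC4 was the lowest of all 8, so the log2 fold change of 0.22 (standard error 0.22) was within the spread, and ONC was the higher on 2 of 4 arrays. It ranged from 0.13 without ONC1 to 0.44 without ONC4 and was 0.44 with processed signals. Gabbr1 varied little, from -0.58 to -0.35 in CTR and -0.47 to -0.38 in ONC, with a log2 fold change of 0.07. Its 3 probes disagreed in sign, at 0.19, 0.14 and -0.13, none of them called.

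In the glycine receptor, alpha subunits bind glycine and the beta subunit, from Glrb, ties the channel to the scaffold protein gephyrin. Glrb was at -3.29, -3.11, -3.99 and -3.80 over CTR1 to CTR4, against -2.84, -2.82, -3.10 and -3.33 over ONC1 to ONC4. ONC4 lay below CTR1 and CTR2, so the labels overlapped, but ONC was the higher on 4 of 4 arrays, by 0.46, 0.29, 0.90 and 0.47. The log2 fold change of 0.53 had a standard error of 0.21 and an adjusted p = 0.220 by limma without the block, and of 0.11 and 0.0429 with it. It was 1.09 with median scaling (adjusted p 0.0154) and 0.33 with normexp and no filter (0.497). Glrb was a dim gene and not well above background in ONC4. Its probe, at chr2:172451970-172452029 on the minus strand of rn4, is printed because the result rests on it alone.
Glrb: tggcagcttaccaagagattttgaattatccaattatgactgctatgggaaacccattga
Gria2, its neighbor at 183 kb, had a log2 fold change of 0.02.

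Whether the alpha subunits of the glycine receptor differ from Glrb was not tested. Glra1 was the lower in ONC on 4 of 4 arrays, by between 0.11 and 0.37, from -2.15, -2.61, -2.27 and -2.61 in CTR to -2.26, -2.78, -2.42 and -2.98 in ONC. Its log2 fold change of -0.20 (adjusted p = 0.602 by limma) became 0.11 with median scaling and 0.27 in the channels whose dye is not in dispute. When a channel was left out it ranged from -0.31 (without ONC1) to -0.08 (without ONC4). Glra3 varied with the array more than with the label, at -4.01, -4.47, -3.52 and -3.21 in CTR and -3.84, -4.37, -3.84 and -3.53 in ONC. Channels on array 2 were the lowest of each label and those on array 4 the highest, and the log2 fold change was -0.09, or 0.62 with median scaling. Glra3 was not well above background in ONC4. Glra2, whose probe carries the CA repeat, was at 0.12, within a spread set by CTR1 at 4.11 against 3.59 to 3.76 in the other CTR channels. It was 0.24 without CTR1, 0.31 in the channels whose dye is not in dispute and 0.01 with median scaling.

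AMPA receptors carry most fast excitation onto bipolar, amacrine and ganglion cells, and all 4 of their genes passed the filter. Gria3 was at -0.18, -0.01, -0.22 and -0.14 over CTR1 to CTR4, against 0.23, 0.06, 0.20 and 0.05 over ONC1 to ONC4. In this mean of its probes the labels did not overlap, though CTR2 and ONC4 came close to each other. In the probe printed above alone they did overlap, with ONC2 at -1.78 and CTR2 at -1.74. The log2 fold change of the gene was 0.27, by limma with a standard error of 0.09 and an adjusted p of 0.146, higher on 4 of 4 arrays. It was 0.15 for the probe printed above and 0.39 for the other probe. With median scaling the gene was at 0.32 and called (adjusted p 0.0349 by limma). In all, 4 of 34 subunits, among them Gabrr1, Gabrr2 and Gria3, had every ONC channel above every CTR channel and 0 the reverse, where 5.76% and 6.92% of all genes did.

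Gria1 was at -2.79, -2.83, -2.25 and -2.32 in CTR and at -2.16, -2.87, -2.08 and -1.81 in ONC, so the channels on array 2 were the lowest of each label. Its log2 fold change of 0.32 had a standard error of 0.23, and was 0.53 without ONC2, 0.18 without ONC4 and 0.57 with median scaling. Gria2, the subunit that makes the channel impermeable to calcium after RNA editing, was at -0.43, -0.43, -0.86 and -0.98 in CTR and at -0.63, -0.45, -0.66 and -0.86 in ONC. Within each label the channels of arrays 1 and 2 were the highest, and the log2 fold change was 0.02 (standard error 0.15). A second Gria2 probe did not pass the filter. Gria4 was at 0.60 to 0.82 in CTR and 0.73 to 0.89 in ONC, a log2 fold change of 0.10, with 0.21 and 0.00 for its probes.

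Kainate receptors serve OFF bipolar cells, among others, and the genes fall into those of low-affinity subunits (Grik1 to Grik3) and of high-affinity ones that need a partner (Grik4 and Grik5). Grik2 was at -2.89, -3.18, -3.10 and -2.74 over CTR1 to CTR4, against -2.59, -2.84, -2.75 and -2.45 over ONC1 to ONC4. The labels overlapped across arrays, but within them the difference was nearly constant, at 0.30, 0.34, 0.34 and 0.28. The log2 fold change of 0.32 had an adjusted p of 0.234 without the block and 0.0394 with it, by limma, and was 0.69 with median scaling (0.0121). Grik5 mirrored this, at 3.99, 3.85, 3.94 and 3.54 in CTR and 3.61, 3.54, 3.59 and 3.18 in ONC. It was lower in ONC on every array, by 0.38, 0.31, 0.36 and 0.36, and its log2 fold change of -0.35 had an adjusted p of 0.207 without the block and 0.0340 with it. In the channels whose dye is not in dispute it was -0.10 (adjusted p 0.806 by limma), and with median scaling -0.45 (0.0455). A constant difference within arrays is also what a probe that takes up the dyes unequally would give, and these cannot be told apart here. Grik1, the main subunit of OFF bipolar cells, did not pass any test, with a log2 fold change of -0.01, from -0.14 and 0.12 for its probes, and a sign that changed with processed signals.

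Among NMDA receptor genes, whose channels need both glutamate and a coagonist, 4 of 7 passed the filter. Grin2a was at -3.65, -2.81, -3.57 and -3.62 over CTR1 to CTR4, against -2.86, -3.11, -2.75 and -3.33 over ONC1 to ONC4. CTR2 stood 0.80 above the mean of the other CTR channels and above all ONC channels but ONC3, and ONC4 was the lowest ONC channel and not well above background. The log2 fold change was 0.40 (limma, adjusted p 0.344, standard error 0.21). With median scaling Grin2a was called at 0.94 (adjusted p 0.0268). It was 0.64 with processed signals, 0.60 without CTR2 and 0.25 with normexp and no filter. Grin2d varied by array, at 4.23, 3.98, 4.53 and 4.77 in CTR and 4.46, 3.87, 4.43 and 4.78 in ONC, with a log2 fold change of 0.01. Grin2c and Grin3a were at -0.08 and 0.11, with adjusted p of 0.740 and 0.612.

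The 5 metabotropic glutamate receptor genes that passed the filter, of the 7 taken, were all higher in ONC, with log2 fold changes from 0.14 to 0.27. Grm4, which lowers transmitter release, was at 0.93, 1.51, 0.89 and 0.71 in CTR and 1.45, 1.43, 1.42 and 0.84 in ONC. CTR2 was with the first 3 ONC channels and ONC4 with the other CTR channels, for a log2 fold change of 0.27 (standard error 0.20). It was 0.43 with processed signals and 0.17 to 0.44 when a channel was left out, and its probes gave 0.44 and 0.10. Grm8 had log2 levels of -0.23 to -0.07 in CTR and -0.08 to 0.08 in ONC, and its fold change of 0.14 had an adjusted p of 0.393 and was 0.07 with processed signals. Grm2 and Grm7 were at 0.18 and 0.15, with Grm7 not well above background in ONC4.

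**Figure D3:**
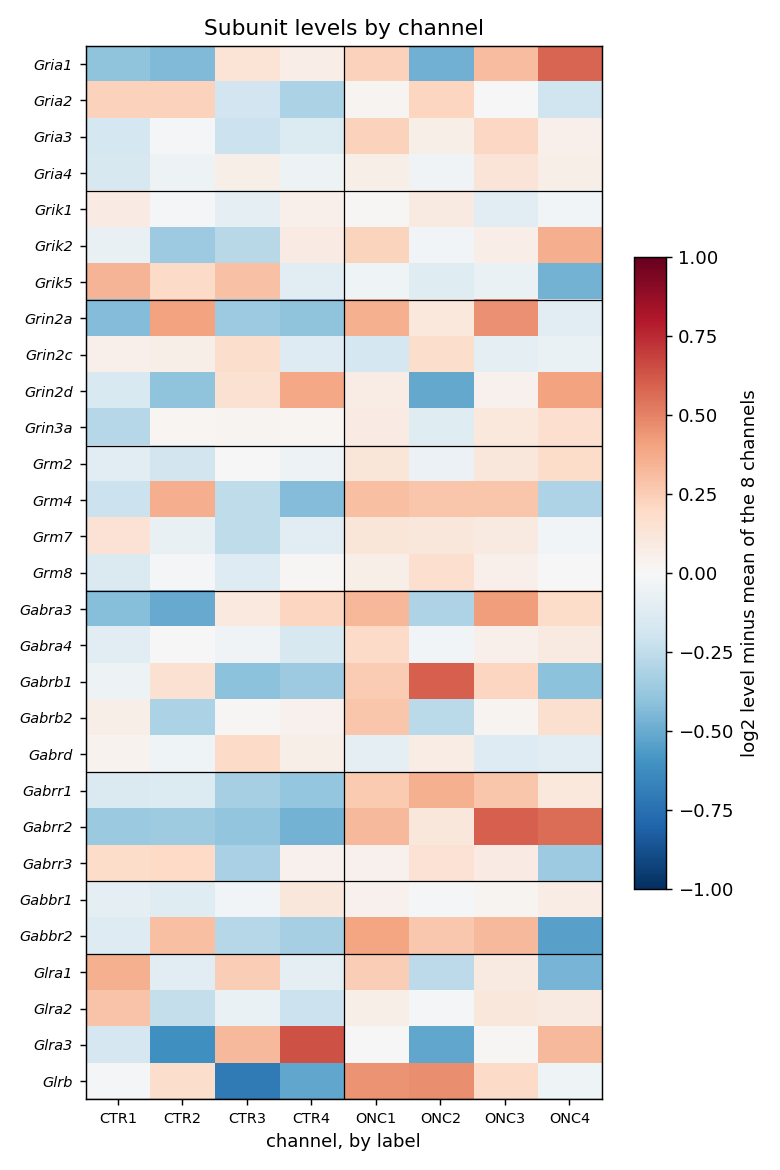
Log2 level of 29 of the 34 subunits in the 8 channels, less the mean of its 8 channels, with rows grouped by receptor class. Red is above and blue below that mean, on a scale that ends at 1 in either direction. The Gabrr1 and Gabrr2 rows change at the line between labels, while Gria1, Grin2d and Glra3 share low values in CTR2 and ONC2, the channels of array 2.

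The way Gabbr2, Grm4 and Grin2a varied within the labels recurred in other subunits. CTR2 was the highest CTR channel and ONC4 the lowest ONC channel for 10 of 34 subunits (29.4%), against 8.56% of all genes. For 5 of them (Gabbr2, Grm4, Grin2a, Gabrb1 and Glrb) each of the gaps was over 0.4 from the mean of the other channels of the label, as for 1.80% of all genes. The opposite gaps, with CTR2 low and ONC4 high, were found for 2 of 34 subunits (5.88%), against 5.17% of all genes. CTR2 and ONC4 are the channels that the RGC markers set apart. The RGC marker levels were also summed on the linear scale. The log2 of this sum was 3.94, 5.41, 4.15 and 4.53 over CTR1 to CTR4, against 5.63, 5.61, 5.64 and 4.21 over ONC1 to ONC4. Such a sum compares channels and is weighted toward the brightest probes, here that of Stmn2, which differed by 0.16 between labels. For 9 of 11 markers CTR2 was the highest CTR and ONC4 the lowest ONC channel. Of the markers that did not pass the filter, Rbpms2, Pou4f3, Isl2, Nrn1 and Ebf3 were well above background in 1, 5, 7, 7 and 8 channels. The part of RGC RNA in these subunit levels was not tested. Gabrr1 is among the 10 and Gabrr2 is not. Their gaps were smaller: for Gabrr2 and Gabrr1 CTR2 stood 0.05 and 0.16 above the mean of the other CTR channels, and ONC4 was 0.21 above and 0.19 below that of the other ONC channels.

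**Figure D4:**
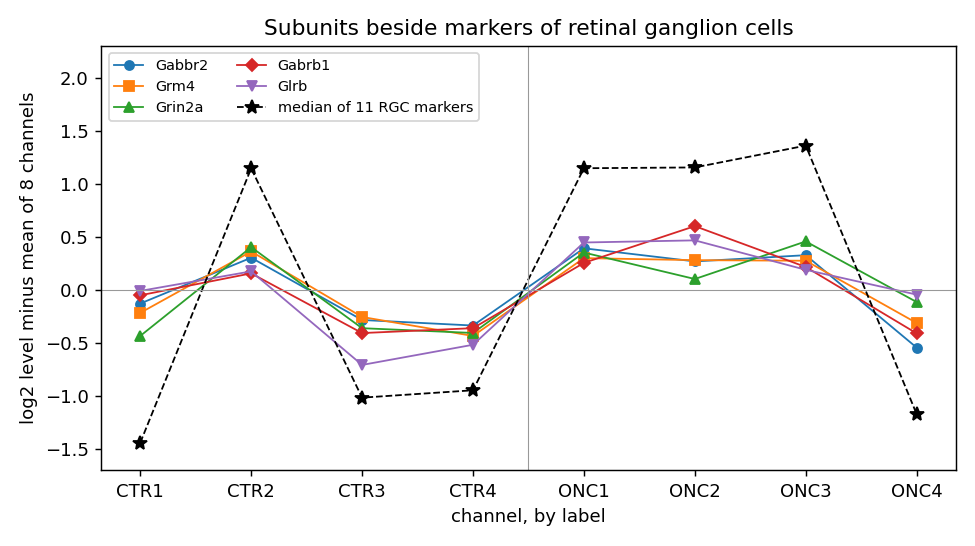
Log2 level of 5 subunits and the median of 11 RGC markers in the 8 channels, each gene less the mean of its 8 channels. Lines only join the points of a gene. CTR2 and ONC1 to ONC3 are high and CTR1, CTR3, CTR4 and ONC4 low for the markers, and Gabbr2 and Grm4 lie high and low in the same channels with a smaller amplitude.

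Markers of other cell types were counted the same way. Of 9 bipolar markers, all of which passed, 7 were higher and 2 lower in ONC (median 0.08). The log2 of their summed linear levels, weighted toward the bright probe of Pcp2, lay between 6.44 and 6.75 in all 8 channels. Of 12 amacrine markers 11 passed, 5 higher and 6 lower with a median of -0.02. The log2 of their summed linear levels, weighted toward that of Calb2, was 6.26 to 6.81. Medians were -0.11 for 8 rod, -0.28 for 7 cone, -0.19 for 7 Müller cell, -0.01 for 5 horizontal cell and -0.29 for 7 microglial markers. With median scaling they were -0.45, -0.38, -0.46, 0.00 and 0.01, and 0.09 for the amacrine and 0.18 for the bipolar markers. For the short lists of astrocyte, pigment epithelium, lens and endothelial genes, medians were -0.75, 0.19, -0.32 and 0.13 over 2, 4, 6 and 4 genes. No marker on any list was called. With the array as a block the calls included 1 amacrine (Slc6a9), 2 Müller (Slc1a3 and Vim) and 2 cone (Opn1mw and Pde6h) markers, all lower in ONC. Their part in the subunit levels was not tested.

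Other genes of the same synapses were read from lists. Among all genes 7.69% were called with the block, 3.08% higher and 4.61% lower in ONC. Of 31 partners of glutamate receptors, such as scaffolds and auxiliary subunits, 23 could be tested, 14 of them above and 9 below 0 (median 0.04, or 0.24 with median scaling), 0 called and 1 called with the block. That gene was Neto1, an auxiliary subunit of kainate receptors, at 0.23, 0.24, -0.08 and -0.06 in CTR and -0.40, -0.17, -0.55 and -0.44 in ONC. It was lower on 4 of 4 arrays without overlap of labels (log2 fold change -0.47, adjusted p = 0.0883 without and 0.0311 with the block, by limma). Of 19 partners of inhibitory receptors 16 passed, 13 higher and 3 lower (9 higher with median scaling and 9 with processed signals), with a median of 0.04, 0 called and 1 with the block, Nrxn2. This presynaptic adhesion protein gene was at 1.09, 1.17, 1.15 and 0.97 in CTR and 1.71, 1.51, 1.74 and 1.31 in ONC, a log2 fold change of 0.47 (adjusted p = 0.0819 without and 0.0340 with the block).

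For synthesis and transport of the transmitters, 21 of 26 genes passed, 11 higher and 10 lower, with a median of 0.03 (0.10 with median scaling) and 0 called. With the block 7.69% of all genes were called, 4.61% lower in ONC. Of this list 3 were called, all lower in ONC and lower on 4 of 4 arrays. They were Slc6a9, the glycine transporter of amacrine and Müller cells, at a log2 fold change of -0.41, Slc1a3, the glutamate transporter of Müller cells, at -0.56, and Srr, which makes the NMDA receptor coagonist D-serine, at -0.48, with adjusted p of 0.0334, 0.0336 and 0.0391. Of the 4 chloride cotransporters, which set the direction of GABA and glycine currents, 3 were higher in ONC. Slc12a5, the exporter KCC2 of mature neurons, was at 1.51, 1.39, 1.63 and 1.29 in CTR and 1.93, 1.53, 2.01 and 1.66 in ONC. It was higher on 4 of 4 arrays with some overlap of labels, for a log2 fold change of 0.33 (adjusted p = 0.223 without and 0.0524 with the block).

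The 14 subunits that did not pass the filter were fitted only with normexp in place of background subtraction. Gabra5, Gabra6, Gabrg3 and Glra4 were not well above background in any channel, with foregrounds between 0.749 and 2.86 times the background. Gabra2 failed only through CTR1, where its foreground was 1.96 times the background, and it was well above background in all 8 channels, with 3.73, 2.36 and 2.54 times in CTR2 to CTR4 and 5.84, 6.96, 5.96 and 4.22 times over ONC1 to ONC4. In that fit its log2 fold change was 0.34 (limma, adjusted p 0.587, standard error 0.14). Grin1, the obligatory NMDA receptor subunit, had a probe well above background in all 8 channels that failed in CTR1 at 1.89 times, and the same fit put the gene at 0.14. Gabrg1 was well above background in 7 channels. Grid1, Grik3, Grik4, Grin2b, Grin3b, Grm3 and Grm5 were so in 1 to 5 channels, and their log2 fold changes lay between -0.07 and 0.06. The median background was 55.0 to 56.5 in the red dye and 26.0 to 29.5 in the green, and 72.9%, 75.0%, 71.9% and 72.3% of spots in CTR1 to CTR4 reached 2 times the background against 98.2% to 99.9% in the ONC channels, so the filter acted mainly through CTR.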

How the data were processed

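RNA of 8 rat retinas was measured on 4 two-color arrays. The authors deposited spot files of the scanner software (Feature Extraction 12.0.3.1 per the file headers, 11.1.19.1 in the submitters' processing notes), whose unit is intensity: mean foreground, median local background and a processed signal, background-subtracted and dye-normalized by the software. Scanner flags were also read, and 69 columns of sample values per file were not used. Median foreground was 218 to 626 over a background of 26.0 to 56.5; the number of arrays limits precision.

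Control and outlier-flagged spots and spots under 2 times background in any of 8 channels were left out, leaving 27371 of 42877 spots, 18599 probes and 16307 genes. Background was subtracted, arrays were normalized by loess, channels centered on their median, and spots and then probes averaged on the log2 scale. The labels were contrasted by lmFit and eBayes of limma 3.58.1 under R 4.3.3, two-sided, with Benjamini-Hochberg adjustment over all genes and with no block, since the test named in the methods is unpaired. The procedure was tested on simulated data, and no outcome of that test is reported here. Tables were made in Python 3.11.15 with pandas 2.3.3 and figures with matplotlib 3.10.9.

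The labels place same-numbered CTR and ONC retinas on an array. Deviations from the label means correlated by 0.149, 0.549, 0.401 and 0.487 between channels of an array, over genes. Channels of an array share its spots, and no correlation across arrays is given here. These values therefore do not show that the numbers pair the samples. The array was also fitted as a block. Alternatives were the block, median scaling, processed signals, no filter with normexp, a stricter filter, Aquantile normalization, the methods' t-test, each probe on its own, each channel left out and, added after the data were seen, the 4 channels whose dye both sources give alike.

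The members and lists were chosen with earlier results of these data known. Named are members called by limma, 24 subunits listed as best known in retinal circuits, and in each class those with the smallest p and the largest spread within labels. Others are named to account for members. Some members and markers were fitted and counted but are not reported by name or drawn here. Gene names follow the array annotation. Each sample is 1 retina, and p-values measure the spread between samples.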

Additional observations from a re-analysis of the deposited data

Results flagged for a closer look

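A channel far from the other 3 of its label was found for 4 of 42 groups of 4 (9.52%), by Dixon's ratio of the gap to its nearest neighbor over the range; chance flags about 1 in 20 groups. Some of these genes were named for their spread within labels, so the count is a description and is not set against chance. ONC4 was the low value for 3 of them, Gabbr2 at 2.12, Grm4 at 0.84 and Grik5 at 3.18. The other value was Grin2a at -2.81 in CTR2, above the other CTR channels. CTR2 and ONC4 are also the channels in which the RGC markers go against the rest of their label. The cause was not tested.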

How the results depend on the processing

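Background and signal limit the dim subunits, ONC4 having the fewest spots well above background (66.8%), and 4 channels per label limit precision. Without the block limma called 81 genes, 1 of them a subunit, and the median log2 fold change of the subunits was 0.15. With the array, which same-numbered channels share by the labels, as a block these counts were 1254 and 5, and a dye effect constant within arrays cannot be told apart from condition there. They were 3194 and 14 with median scaling, 21 and 0 with processed signals, 0 and 0 with normexp and no filter (choices made together), 123 and 1 with the stricter filter, 412 and 2 with Aquantile, 0 and 0 with the methods' t-test, and 0 to 38 and 0 to 1 when a channel was left out. In the 4 channels whose dye is not in dispute, chosen after seeing the data, they were 0 and 0. The median was 0.28 with median scaling, 0.28 in those 4 channels and 0.13 to 0.19 when a channel was left out.

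Of 21 subunits 13 kept their sign in every setting fitted for them and 8 did not. Glra3, Glrb and Grin2a did not pass the stricter filter, and the methods' t-test was counted only. The signs turned with median scaling for Gabrr3 (0.15), Glra1 (0.11), Glra3 (0.62) and Grin2d (-0.15), with processed signals for Gabrr3 (0.17), Gria2 (-0.0359), Grik1 (0.00358) and Grin2d (-0.12), with normexp and no filter for Grik1 (0.00375), and in the 4 channels for Glra1 (0.27). Single probes turned the sign for Gabbr1 (-0.13), Gria4 (-0.00229) and Grik1 (0.12). With a channel left out the range was -0.16 to 0.0666 for Gabrr3, -0.31 to 0.11 for Glra3, -0.0771 to 0.11 for Gria2, -0.0486 to 0.0180 for Grik1 and -0.13 to 0.18 for Grin2d. The cause was not tested.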
